A study of Mus musculus with 5 samples.

Results

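The genes described here are the tumor necrosis factor (TNF) ligands and receptors, taken by symbol from the gene table of a single-cell RNA sequencing series of mouse skin. Every symbol that begins with Tnfsf or Tnfrsf was taken, with Tnf, Lta, Ltb, Cd40, Cd40lg and Cd27, and Tnfrsf4 and Tnfrsf18 were left out. This gave 37 of the 27998 genes of the table, 17 ligand symbols and 20 receptors. The ligand symbols include Tnfsf13os, an antisense gene, and Tnfsfm13, a readthrough. The rule uses symbols and no measured value. Of the 37 symbols, 28 had at least 20 UMIs (unique molecular identifiers, the counted molecules) over all cells assigned to a type, and these are described with values. They are 12 ligand symbols, Tnfsfm13 among them, and 16 receptors. The other 9 symbols had from 3 to 19 UMIs.

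Ligands of this superfamily are mostly membrane proteins that act as trimers on a neighbouring cell or are cut off by proteases, and their receptors recruit TRAF adaptors or death domain proteins. The receptors feed mainly into NF-kB, MAP kinase and cell death signalling. In skin they are known for co-stimulation of T cells, for maturation of dendritic cells and for exchanges between immune cells and keratinocytes.

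The cells were live CD45+ cells sorted from C57BL/6 dermis, run in droplets with 10x Genomics 3' chemistry. It followed the resting phase of the hair cycle with 1 library each at postnatal day 45 (P45), P50, P63 and P80, and 1 further library, P50_Depil5D, from skin depilated 5 days before. Whether P50 is the day of depilation or of collection is not stated, nor is the number of animals in a library. All 5 groups share the strain, the tissue and the sort, and none carries an allele or agent besides depilation.

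Of 6223 barcodes, 6162 cells were kept, from 488 (P80) to 2142 (P45) per library, and total UMIs per library ran from 1032621 to 7491878. Cells were assigned to types by marker genes, none of which is a member, and 5411 cells (87.8%) found a type. Each type name below stands for cells like that type by these markers. Ptprc, which encodes CD45, was detected in 50.1% of 4166 immune cells but in 11.1% of 1098 cells that passed as keratinocytes, so the keratinocyte cells go against the sort. P50, P63, P80 and P50_Depil5D shared 134 to 193 barcodes pairwise, against at most 7 with P45, and 582 of the 1098 keratinocyte cells had such a barcode, against 29 of 1390 dendritic epidermal T cells. Levels of genes that were highest in keratinocytes are therefore given with and without those cells. The dendritic epidermal T cells, a gamma-delta T cell of mouse epidermis, are likewise not a dermal type.

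Levels are given as CPM, the UMIs of a gene divided by all UMIs of the type and multiplied by 1e+06, with an exact 95% Poisson interval that covers counting error only. Types were compared within libraries by edgeR's quasi-likelihood test on UMIs summed per type and library, with library as a block, each type against the mean of the other immune types. Calls are at a Benjamini-Hochberg adjusted p under 0.05 over all genes and types. The fit held 8 types in 36 sums and 3044 genes, of which 13 were members, and the other 24 members were too low to enter. Those 13 gave 104 pairs of member and type. In 30 pairs the type was higher, against 19.7% of all pairs of gene and type, and in 22 it was lower, against 11.9%. With 1 library per group these p-values measure the spread between 5 libraries that also differ in age and depilation.

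Among the ligands, Ltb, with 1224 UMIs, was high in T cells. Ltb encodes lymphotoxin beta, which anchors lymphotoxin alpha in the membrane and signals to the lymphotoxin beta receptor on stromal and myeloid cells. Ltb lies next to Tnf and Lta on chromosome 17, in a stretch of 10913 bases at chr17:35194439-35205351 (GRCm38). Tnf and Lta are on the minus strand and Ltb on the plus strand, with 3060 bases between Ltb and Tnf and 1157 between Tnf and Lta. The bases before the RefSeq start of Ltb and of Tnf are shown with those of Tnfrsf25, a member of the receptor group described below. Ltb and Tnfrsf25 hold a kappaB motif and Tnf does not in the window searched. Capitals mark the motif, here on the minus strand.
Ltb: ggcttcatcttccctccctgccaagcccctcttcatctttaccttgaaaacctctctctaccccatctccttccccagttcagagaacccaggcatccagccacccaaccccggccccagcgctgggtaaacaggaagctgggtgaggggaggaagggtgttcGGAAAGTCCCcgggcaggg
Tnfrsf25: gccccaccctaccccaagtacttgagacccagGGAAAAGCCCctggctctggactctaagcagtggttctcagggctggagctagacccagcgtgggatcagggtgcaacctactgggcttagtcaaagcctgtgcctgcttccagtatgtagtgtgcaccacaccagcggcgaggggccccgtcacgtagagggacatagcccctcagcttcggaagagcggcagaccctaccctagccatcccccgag
Tnf: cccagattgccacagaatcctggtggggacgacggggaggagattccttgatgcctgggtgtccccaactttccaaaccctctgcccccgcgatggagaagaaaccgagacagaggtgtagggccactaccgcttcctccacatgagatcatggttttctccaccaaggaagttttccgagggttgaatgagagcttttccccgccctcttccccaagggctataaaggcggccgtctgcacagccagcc

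These sequences are from RefSeq on GRCm38.p6, each on the strand of its gene: Ltb at chr17:35194257-35194438 on the plus strand, Tnfrsf25 at chr4:152115684-152115933 on the plus strand and Tnf at chr17:35202008-35202257 on the minus strand. Both motifs were searched on both strands of the 250 bases before each start, cut at exons. For Ltb the cut left 182 bases, which end 68 bases short of the RefSeq start, and the motif begins 87 bases before that start. The kappaB motif, 3 G, then any 2 bases, 3 T and 2 C, was in 1.41% of all 32851 windows and in 3 of 31 member windows (9.68%). These belong to 3 of 27 member genes with a window, Ltb, Tnfrsf25 and Tnfrsf9, the last at a second start. The AP-1 motif, spelled TGANTCA, was in 6.75% of all windows and in 5 of 31 member windows (16.1%). Those belong to 5 of the 27 genes, which were Tnfrsf8, Tnfrsf9, Tnfsf13, Tnfsf13b and Tnfsf14. No AP-1 match lies in the sequences shown, so the motifs do not overlap there. A match is a description of the letters and not a binding site, and a window without one says nothing of the factor.

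In other T cells (T cells of neither the epidermal, regulatory nor gamma-delta T17 subset, led by Jchain and Cd28), Ltb stood at 527, 701, 464, 868 and 794 CPM in P45, P50, P63, P80 and P50_Depil5D. In regulatory T cells, the Foxp3+ suppressive T cells, the 5 values ran from 396 to 763 CPM, and in dendritic epidermal T cells from 185 to 414. In type 2 dendritic cells Ltb did not exceed 19.98 CPM in any library. Every library thus had all 3 T cell types above all myeloid types and keratinocytes. The log2 fold over the other immune types was 3.83 ± 0.26 (SE) in other T cells, 3.57 ± 0.27 in regulatory T cells and 2.18 ± 0.26 in dendritic epidermal T cells (edgeR adjusted p of 1.23e-14, 4.13e-13 and 2.3e-08). Other and regulatory T cells, at 637 and 579 CPM pooled, did not differ beyond counting error (ratio 1.10, 0.911 to 1.33). After each cell was thinned to 1000 UMIs, 39.6% of other T cells (33.2 to 46.4, exact Clopper-Pearson) and 37.8% of regulatory T cells had an Ltb UMI, against 1.02% of keratinocytes, the type that should lack it. Without thinning the shares were 51.3%, 53.9% and 3.37%, at median depths of 1423, 1524 and 2707.5 UMIs.

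**Figure D1:**
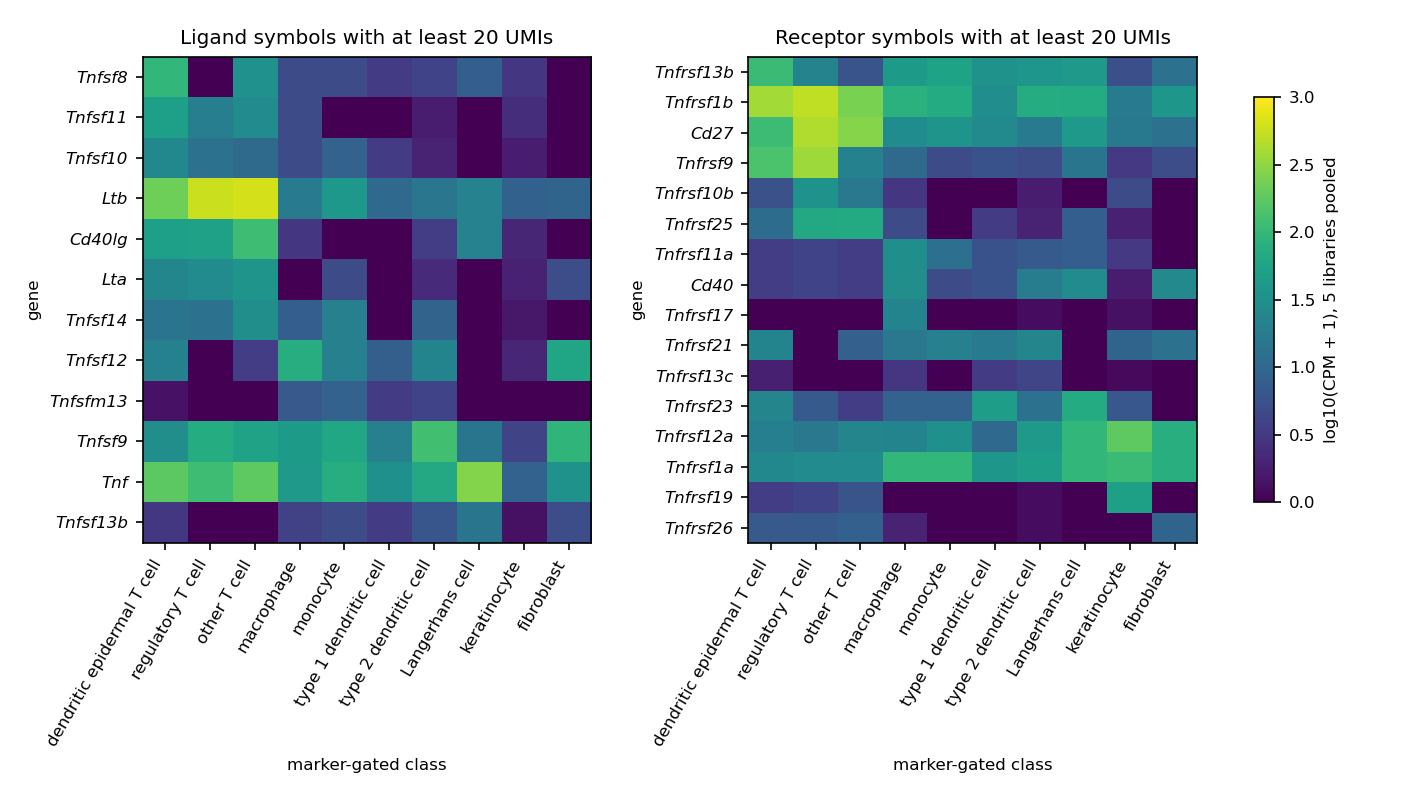
Level of the 28 members with at least 20 UMIs (rows, ligands left and receptors right) in the 10 types of at least 50 cells (columns), as log10(CPM + 1) over the 5 libraries pooled. Ltb is brightest in other and regulatory T cells (637 and 579 CPM), Cd27 and Tnfrsf9 in regulatory T cells, and Tnfrsf12a and Tnfrsf19 in keratinocytes.

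Of the neighbours of Ltb, Lta was found mainly in the same T cell types and Tnf also in myeloid cells. Lta, which encodes lymphotoxin alpha, was at 34.6 CPM in other T cells (18.9 to 58.0), 27.0 in regulatory T cells and 23.1 in dendritic epidermal T cells. Those intervals overlap. No Lta UMI was seen in macrophages, type 1 dendritic cells or Langerhans cells.

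Tnf, the inflammatory cytokine that gave the family its name, was found in T cells and in myeloid cells. Among types of at least 50 cells its pooled level was highest in Langerhans cells, the dendritic cells of the epidermis (273 CPM), at 194 CPM in P45, 76.4 in P50 and 438 in P50_Depil5D, the 3 libraries with at least 10 such cells. In P50 they were below dendritic epidermal T cells (176 CPM) and other T cells (160 CPM). The log2 fold was 1.49 ± 0.43 (edgeR adjusted p = 0.00687), and 40 UMIs in 55 cells underlie it. Of these UMIs 30 came from P50_Depil5D, and without that library the log2 fold was 0.40 (edgeR adjusted p = 0.745). Against the summed other immune types it was 0.80 and not called (edgeR adjusted p = 0.112). In other T cells Tnf ranged from 120 to 325 CPM and in dendritic epidermal T cells from 71.7 to 237, with log2 folds of 1.01 ± 0.33 and 0.76 ± 0.26 (edgeR adjusted p = 0.0161 and 0.0208). By the same summed comparison the value in epidermal T cells was 0.61 and missed the threshold (edgeR adjusted p = 0.0756). Tnf was lower in macrophages (41.2 CPM, log2 -1.39) and type 1 dendritic cells (31.0 CPM, log2 -1.79), where no library exceeded the other immune cells. Type 2 dendritic cells, at 63.3 CPM, were not called.

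Among types of at least 50 cells, Tnfsf8 was highest in dendritic epidermal T cells. It encodes CD30 ligand, and its level there was 65.6, 119, 114, 53.8 and 95.9 CPM over the libraries in that order. Regulatory T cells had no Tnfsf8 UMI in 333515, which allows up to 8.995 CPM. With a type at 0, the mean of the other types has no finite log value, which was so for Tnfsf8 and Cd40lg among the 13 members and for 357 of the 3044 genes. For these 2 genes the test against the summed other immune types of each library is given instead, where 17.6% of 5633 genes were higher and 18.8% lower in dendritic epidermal T cells. Tnfsf8 was higher there by a log2 fold of 3.73 ± 0.29, in 5 of 5 libraries (edgeR adjusted p = 2.51e-06). Its receptor gene Tnfrsf8, CD30, had 7 UMIs in all, 4 of them in regulatory T cells.

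Cd40lg, the helper ligand that licenses dendritic cells and B cells through CD40, stood at 116 CPM in other T cells. It was 16.2 CPM in P45, from 2 UMIs (1.97 to 58.6), and 95.4 to 325 in the 4 other libraries. P45 was thus the lowest, but its interval overlaps that of P63, which had the 95.4 CPM. The 325 CPM is from the 18 such cells of P80. In dendritic epidermal T cells Cd40lg was 47.9 CPM (35.9 to 64.2 over libraries). That was higher than in the summed other types by a log2 fold of 1.23 ± 0.34 (edgeR adjusted p = 0.0194). Regulatory T cells had 51.0 CPM from 17 UMIs.

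Tnfsf11 and Tnfsf10 were too low for the main fit. Tnfsf11, which encodes RANKL, the ligand that drives osteoclasts and is used by lymphocytes to signal to myeloid and epithelial cells, was 6.25, 40.2, 0, 35.9 and 95.9 CPM over the libraries in that order in dendritic epidermal T cells. These 114 UMIs were most of the 149 in all assigned cells, but other T cells, at 27.2 CPM, did not differ from them beyond counting error (ratio 1.76, 0.949 to 3.63). Tnfsf10, which encodes the death ligand TRAIL, was 23.9 CPM in the same cells, from 15.8 to 42.8 over libraries. Against the summed other immune types its log2 fold was 2.81 ± 0.42, with the epidermal T cells above in 5 of 5 libraries (edgeR adjusted p = 0.00042). Tnfsf14, LIGHT, which binds HVEM and the lymphotoxin beta receptor, was 29.6 CPM in other T cells from 12 UMIs.

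Type 2 dendritic cells, the Cd209a+ and Mgl2+ population of the dermis, led for Tnfsf9. It encodes 4-1BB ligand, which co-stimulates T cells through 4-1BB. Its levels were 143, 94.8, 184, 146 and 73.6 CPM in P45, P50, P63, P80 and P50_Depil5D. The type stood above the summed other immune cells in 5 of 5 libraries, with a log2 fold over the mean of the types of 2.14 ± 0.25 (edgeR adjusted p = 1.2e-08). Fibroblasts, at 91.2 CPM, did not differ from them beyond counting error (ratio 1.36, 0.887 to 2.19). In keratinocytes Tnfsf9 was lower, at 3.08 CPM and a log2 fold of -3.41.

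Macrophages, the C1qa+ and Pf4+ cells, led for Tnfsf12 among types of at least 50 cells. Tnfsf12 encodes TWEAK, the ligand of the receptor Fn14. It was 73.0, 95.03, 66.6, 62.8 and 13.98 CPM in the 5 libraries in the order above, the last from 1 UMI. Fibroblasts, at 58.0 CPM, did not differ from macrophages beyond counting error (ratio 1.27, 0.712 to 2.43). Tnfsf12 overlaps the readthrough symbol Tnfsfm13 and lies beside Tnfsf13 and its antisense Tnfsf13os, so counts may be divided among these symbols. Tnfsfm13 had 22 UMIs, Tnfsf13os 9 and Tnfsf13, which encodes APRIL, 6. Tnfsf13b, the B cell survival factor BAFF, had 36, of which 21 were in type 2 dendritic cells.

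Among the receptors, regulatory T cells led for Tnfrsf9, Cd27 and Tnfrsf1b. Tnfrsf9 encodes 4-1BB, the receptor of the dendritic cell ligand above. In regulatory T cells it was 198, 571, 267, 547 and 344 CPM in P45, P50, P63, P80 and P50_Depil5D, and in dendritic epidermal T cells 73.4, 165, 136, 89.6 and 170. In each library the regulatory T cells were above the epidermal T cells, and pooled the ratio was 2.62 (2.11 to 3.23). The log2 folds over the other immune types were 4.44 ± 0.34 and 2.74 ± 0.32 (edgeR adjusted p = 3.65e-13 and 8.71e-09). Other T cells were not called. At 1000 UMIs per cell, 22.6% of regulatory T cells (16.4 to 29.7), 11.1% of dendritic epidermal T cells and 2.25% of other T cells had a Tnfrsf9 UMI, against 0.102% of keratinocytes (27.2%, 16.4%, 2.30% and 1.002% unthinned). P45 was lowest in both T cell types, and without it the level in regulatory T cells was 434 CPM in place of 363.

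Cd27, a co-stimulatory receptor bound by CD70, was 396, 459, 684, 608 and 333 CPM over the libraries in that order in regulatory T cells. In other T cells it lay between 258 and 327 CPM. Regulatory T cells were the highest type of at least 50 cells in all 5 libraries, and the pooled ratio to other T cells was 1.54 (1.20 to 1.99). The log2 folds were 3.12 ± 0.22 in regulatory and 2.37 ± 0.23 in other T cells (edgeR adjusted p = 5.21e-14 and 2.34e-10). In dendritic epidermal T cells it was 228 CPM in P45 and 55.5 to 150 in the other libraries. That type was called higher by a log2 fold of 0.76 ± 0.21 (edgeR adjusted p = 0.00462), but was above the summed other immune cells in 3 of 5 libraries, and without P45 the log2 fold was 0.59 (edgeR adjusted p = 0.118). The epidermal T cells of P45 also had the summed markers of type 2 dendritic cells at 659 CPM, against 31.6 to 228 in the other libraries, and their part in this value was not tested. Cd27 was lower in macrophages, type 1 and type 2 dendritic cells and keratinocytes, at 15.2 to 27.5 CPM.

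**Figure D2:**
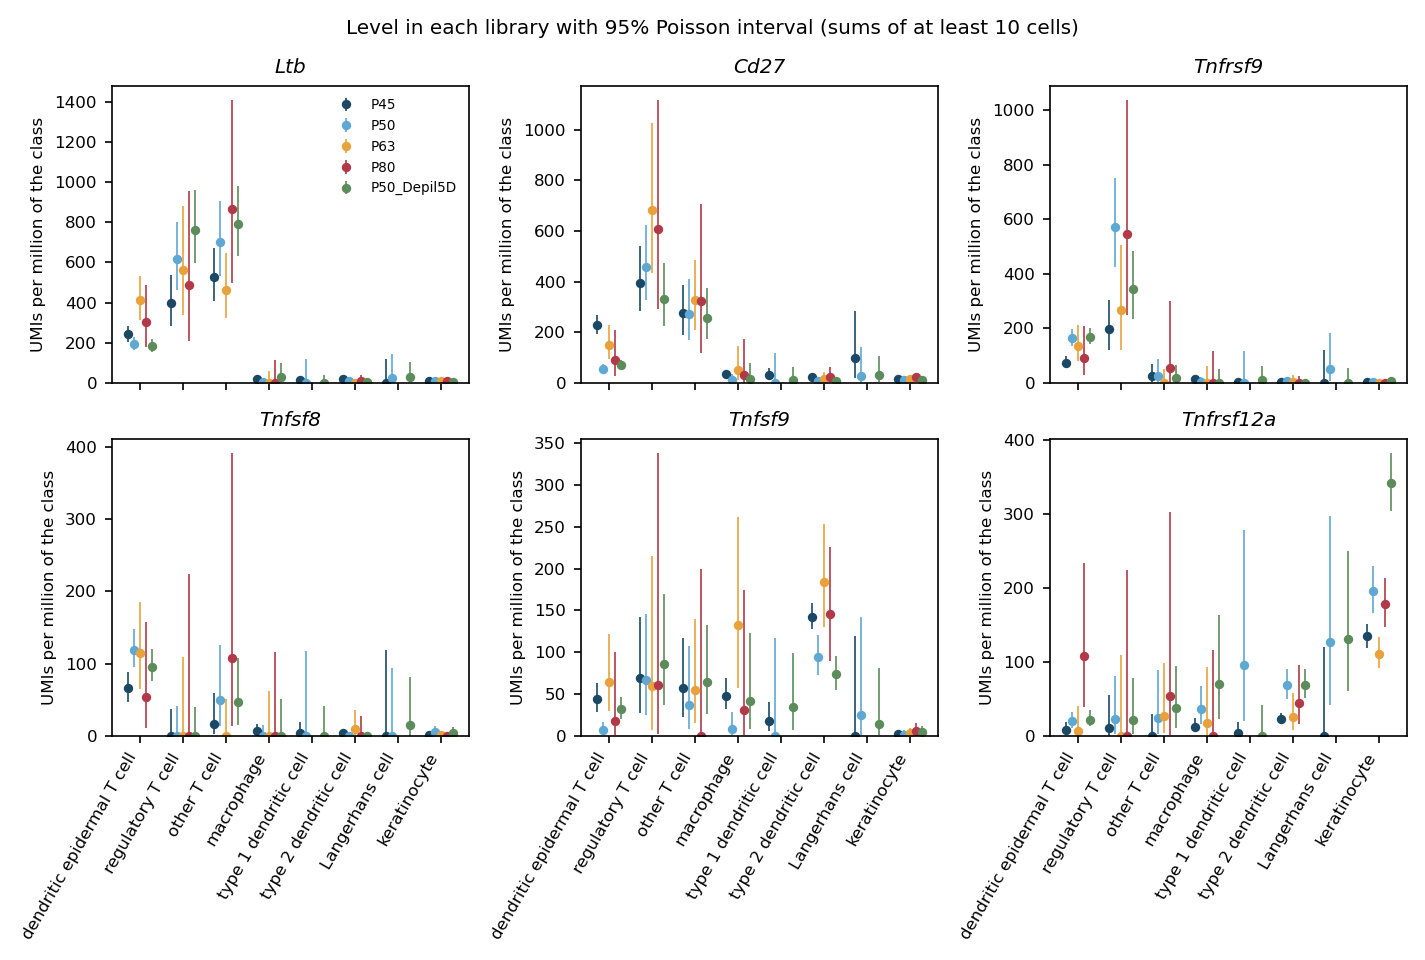
Level (CPM within the type, vertical) of 6 members in 8 types (horizontal), 1 point per library with its exact 95% Poisson interval, for sums of at least 10 cells. Ltb and Cd27 are high in T cell types in each library, Tnfrsf9 in regulatory T cells (198 to 571 CPM), Tnfsf8 in dendritic epidermal T cells, Tnfsf9 in type 2 dendritic cells and Tnfrsf12a in keratinocytes, where P50_Depil5D is highest (342 CPM).

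Tnfrsf1b encodes TNFR2, the TNF receptor without a death domain. It was 396, 717, 832, 425 and 344 CPM in regulatory T cells over the libraries in the order above, and 286 to 507 in dendritic epidermal T cells. The ranges of these types overlapped, although the pooled ratio was 1.34 (1.13 to 1.58). Both were called, with log2 folds of 2.21 ± 0.26 and 1.66 ± 0.23 (edgeR adjusted p = 1.47e-08 and 2.79e-07). Other T cells, at 247 CPM, were called higher by 1.02 ± 0.29 over the mean of the types (edgeR adjusted p = 0.00641) but not over their sum (0.30, edgeR adjusted p = 0.308).

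Tnfrsf25, which encodes DR3, the receptor for TL1A, was 66.7 CPM in other T cells and 62.97 in regulatory T cells. In other T cells its values were 16.2, 123, 40.9, 0 and 111 CPM, from 27 UMIs in all, with 10 in P50 and 12 in P50_Depil5D. In the 18 such cells of P80, 3 UMIs would be 163 CPM, so the place of P80 among the libraries is not known. The log2 folds were 3.33 ± 0.58 and 3.13 ± 0.61, each in 4 of 5 libraries (edgeR adjusted p = 1.71e-05 and 9.42e-05). Its ligand gene Tnfsf15 had 11 UMIs in all, 6 of them in keratinocytes and 4 in type 2 dendritic cells. Tnfrsf10b, the mouse TRAIL receptor with a death domain, had 67 UMIs and was 32.98 CPM in regulatory T cells from 11 of them.

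Dendritic epidermal T cells led for 1 receptor, Tnfrsf13b. It encodes TACI, known mainly as a B cell receptor for BAFF and APRIL. Its values were 73.4, 132, 92.8, 89.6 and 120 CPM, the highest type of at least 50 cells in all 5 libraries. The log2 fold was 1.93 ± 0.30 (edgeR adjusted p = 2.81e-06). In other T cells it was lower, with 2 UMIs in all (4.94 CPM, log2 -3.04 ± 0.79, edgeR adjusted p = 0.00256). At 1000 UMIs per cell, 9.55% of epidermal T cells (7.91 to 11.4) and 0.450% of other T cells had a UMI, against 0.409% of keratinocytes. Myeloid types lay between, with 6.20% of type 1 dendritic cells (2.72 to 11.9), 3.92% of macrophages and 3.74% of type 2 dendritic cells. The order of these shares differed by library: in P45 it was 4.26% of epidermal T cells (2.06 to 7.69) and 9.52% of type 1 dendritic cells (4.20 to 17.9), intervals that overlap, and in P80 0 of 17 epidermal T cells had a UMI (up to 19.5%).

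Counted by type, 8 of the 13 tested members were higher and 1 lower in dendritic epidermal T cells, where 24% of all tested genes were higher and 12.3% lower. In regulatory T cells 6 were higher and 0 lower (14.7% and 11.5% of all genes), and in other T cells 7 were higher and 2 lower (15.9% and 10.2%). In keratinocytes 2 were higher and 8 lower (35.1% and 22.1%), in type 2 dendritic cells 2 and 4 (25.3% and 9.56%), in macrophages 1 and 3 (21% and 11%), in type 1 dendritic cells 1 and 4 (11.4% and 8.9%) and in Langerhans cells 3 and 0 (9.99% and 9.53%). Against the summed other immune types the count in Langerhans cells turned, with 0 higher and 4 lower of 15 members (3.63% and 9.24% of all genes), the lower ones being Tnfrsf1b, Tnfrsf9, Ltb and Tnfsf9. In type 1 dendritic cells it was 1 higher and 8 lower of 15 (3.54% and 8.53%). By the same comparison Tnf and Cd27 were not called in dendritic epidermal T cells. Tnfsf9 and Tnfrsf12a were lower there (log2 -1.93 and -1.50), as was Tnfrsf1a. Ltb, Cd40lg, Tnfsf8, Tnfrsf1b, Tnfrsf9 and Tnfrsf13b stayed higher. The shares over all genes for this type stand with Tnfsf8 above. The median log2 fold of the 13 was 0.76 in epidermal, 0.84 in regulatory and 1.01 in other T cells, beside 0.14, -0.0030 and 0.01 for all genes, and -2.69 in keratinocytes beside 0.17. The members entered the fit through the types in which they are high, so these counts do not speak for all 37. They include Cd40lg and Tnfsf8, each with a type at 0, which make up 5 of the 30 higher calls and none of the lower ones.

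**Figure D3:**
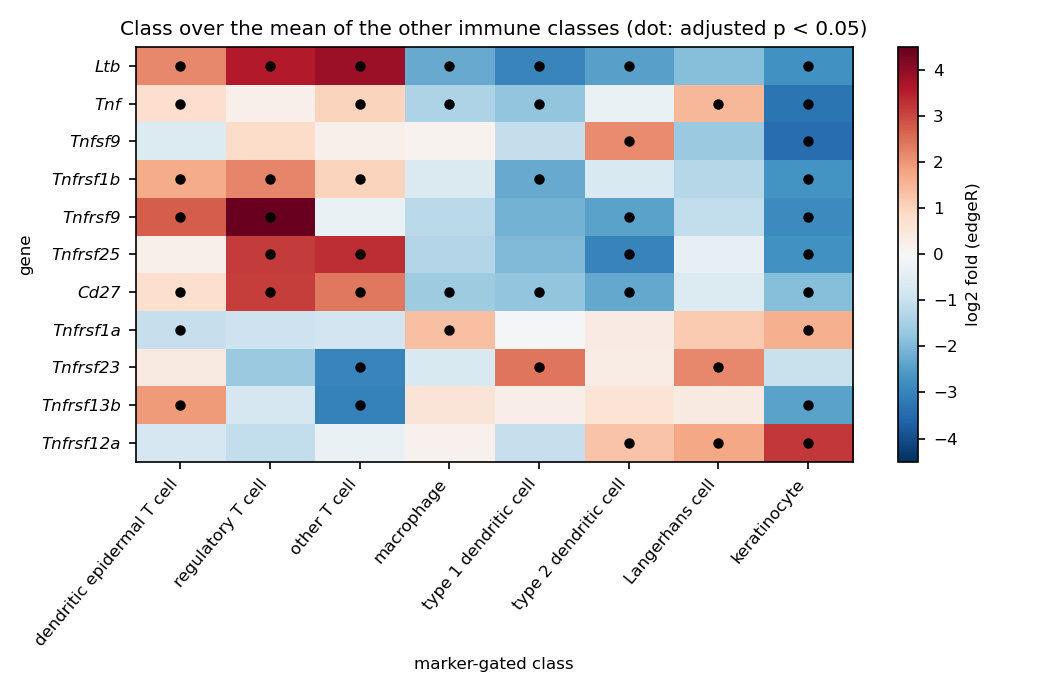
Log2 fold of each type (columns) over the mean of the other immune types for the 11 tested members with no type at 0 (rows), from edgeR's quasi-likelihood fit; a dot marks an adjusted p under 0.05. Ltb, Cd27, Tnfrsf9 and Tnfrsf1b are higher in T cell types, Tnfsf9 in type 2 dendritic cells and Tnfrsf12a in keratinocytes.

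Of the types of at least 50 cells, macrophages led for Tnfrsf11a, Cd40 and Tnfrsf17. Tnfrsf11a, which encodes RANK, the receptor of RANKL, was 30.4 CPM in macrophages, from 26.6 to 62.8 over libraries. They were the highest of these types in all 5, from 31 UMIs in all. Of these UMIs 7 were in P50 and 3 in P50_Depil5D. In P80 the macrophage level was below the 94.2 CPM that 3 UMIs would give, so the order within libraries rests on few counts. Among types of at least 50 cells monocytes were next, at 11.5 CPM from 3 UMIs, a difference within counting error (ratio 2.64, 0.824 to 13.5). In smaller types Tnfrsf11a was 41.3 CPM in endothelial cells (6 UMIs), 41.1 in mature dendritic cells (3 UMIs) and 30.9 in mural cells (1 UMI). Cd40, which receives the CD40 ligand of T cells, was 29.5 CPM in macrophages, 27.3 in Langerhans cells and 16.97 in type 2 dendritic cells. Tnfrsf17, which encodes BCMA, a receptor of BAFF and APRIL known from plasma cells, had 26 UMIs, of which 22 were in macrophages (21.6 CPM, 13.5 to 32.7). They came from 21 of 445 macrophages and from all libraries but P63. Dendritic epidermal, regulatory and other T cells had none. At 1000 UMIs per cell 2.21% of macrophages had one, against 0.102% of keratinocytes.

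Tnfrsf23, a decoy receptor for TRAIL that lacks a death domain, was highest in Langerhans cells (68.3 CPM, 10 UMIs) and type 1 dendritic cells (45.3 CPM, 19 UMIs), the Xcr1+ cross-presenting type. In type 1 dendritic cells it was 17.2, 95.2 and 113 CPM in P45, P50 and P50_Depil5D, above the other immune cells each time (log2 2.40 ± 0.56, edgeR adjusted p = 0.000889). Tnfrsf22 and Tnfrsf26 are close relatives of it, with 19 and 25 UMIs, and reads may be divided among the 3. Tnfrsf21, DR6, was at 22.0 CPM in type 2 dendritic cells and 21.4 in dendritic epidermal T cells. Tnfrsf13c, the BAFF receptor, had 22 UMIs, 13 of them in type 2 dendritic cells.

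Keratinocytes led for Tnfrsf12a, Tnfrsf1a and Tnfrsf19 among types of at least 50 cells. Tnfrsf12a encodes Fn14, the TWEAK receptor, known as a gene induced in injured epithelium. It was 134, 196, 111, 178 and 342 CPM in P45, P50, P63, P80 and P50_Depil5D, with keratinocytes the highest type in all 5 libraries. The log2 fold over the mean of the immune types was 3.19 ± 0.22 (edgeR adjusted p = 3.74e-14). Without cells of shared barcodes the values were 135, 224, 105, 187 and 412 CPM, with 15 UMIs each in P63 and P80. That left 65 of 205 keratinocyte cells in P63 and 68 of 237 in P80. The keratinocyte p-values here and below treat the library sums as separate, which the shared barcodes leave uncertain. Type 2 dendritic cells were also called higher for Tnfrsf12a (40.0 CPM, log2 1.30 ± 0.30, edgeR adjusted p = 0.000917).

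Tnfrsf1a encodes TNFR1, the death domain receptor of TNF that most cells carry. It was 74.1 to 137 CPM in keratinocytes and 55.9 to 133 in macrophages. The log2 folds were 1.60 ± 0.19 and 1.36 ± 0.27, each type in 5 of 5 libraries (edgeR adjusted p = 8.71e-09 and 9.51e-05). Without cells of shared barcodes the keratinocyte values were 117, 130.3, 83.9, 162 and 161 CPM. With all cells keratinocytes and macrophages did not differ from each other beyond counting error (ratio 1.14, 0.917 to 1.42). The 47 endothelial cells stood above both for Tnfrsf1a, at 234 CPM (162 to 327, 34 UMIs). The 12 mural cells had 155 CPM from 5 UMIs. Dendritic epidermal T cells were lower for Tnfrsf1a, at 24.4 CPM (log2 -1.03 ± 0.28, edgeR adjusted p = 0.00394).

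Tnfrsf19, TROY, an orphan receptor of stem and progenitor cells of epithelia, was 35.8, 47.2, 82.5, 68.0 and 34.9 CPM in keratinocytes, with 277 of its 289 UMIs there. Against the summed immune types, where 24.1% of 7278 genes were higher and 27.2% lower in keratinocytes, its log2 fold was 4.92 ± 0.31 (edgeR adjusted p = 2.38e-07). Without cells of shared barcodes it was 32.98 CPM pooled in place of 50.3, and 12.5 in P80, from 1 UMI. Tnfrsf11b, osteoprotegerin, the decoy of RANKL, had 14 UMIs, all in keratinocytes (2.54 CPM), and 11 without cells of shared barcodes (3.27 CPM).

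Side by side, and among types of at least 50 cells, these levels put several ligands and receptors in different types. The type with the highest Tnfsf9 was the type 2 dendritic cell (124 CPM), and that with the highest Tnfrsf9 was the regulatory T cell (363 CPM). Tnfsf12 was highest in macrophages (73.6 CPM) and its receptor gene Tnfrsf12a in keratinocytes (177 CPM). Tnfsf11 was highest in dendritic epidermal T cells (47.9 CPM) and Tnfrsf11a in macrophages (30.4 CPM). Ltbr, which encodes the receptor of lymphotoxin beta and carries no Tnfrsf symbol in this table, was 53.9 CPM in fibroblasts (13 UMIs), the highest of the types of at least 50 cells, and 62.0 CPM in the 47 endothelial cells (9 UMIs). For Cd27, the ligand gene Cd70 had 20 UMIs in all. These are RNA levels in types, and no contact or signal between them was measured.

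The genes that carry these signals inside the cell were tested as 4 lists. Of 13 receptor adaptors and kinases 4 entered the fit, and 3 of them were higher in regulatory T cells (14.7% of all genes were) and 3 in type 2 dendritic cells (25.3%), while 3 were lower in keratinocytes (22.1%). Against the summed other immune types 1 of 3 was higher in regulatory T cells (11.9% of all genes), and 1 of 11 was higher and 2 lower in type 2 dendritic cells (16.3% and 15.6%). Traf1, an adaptor of TNFR2 and 4-1BB, was 450 CPM in regulatory T cells and 13.7 in Langerhans cells, where it was lower (log2 -3.45, edgeR adjusted p = 0.000506). Birc2, a ubiquitin ligase at these receptors, was higher in dendritic epidermal T cells (97.0 CPM, log2 1.60, edgeR adjusted p = 1.03e-05). Of 5 NF-kB subunits 2 were tested: Rel was higher in type 2 dendritic cells (338 CPM, log2 1.61) and Nfkb1 in regulatory T cells (183 CPM, log2 0.90). Of 12 feedback genes of NF-kB 10 were tested, with counts given against the mean of the other immune types only. In type 2 dendritic cells 6 were higher and 1 lower (25.3% and 9.56% of all genes). In type 1 dendritic cells 0 were higher and 5 lower (8.9% of all genes were lower there). In dendritic epidermal T cells 2 were higher and 3 lower, and in keratinocytes 1 and 3 (22.1% of all genes were lower there). The remaining shares over all genes in these types stand with the member counts above. Among the 6 higher in type 2 dendritic cells, Tnip3 had no UMI in Langerhans cells. The mean for Tnip3 thus has no finite log value, and its fold is not given. Tnfaip3, the A20 deubiquitinase, was 54.9 CPM in type 1 and 279 in type 2 dendritic cells, and was lower in the former (log2 -2.16, edgeR adjusted p = 6.57e-05). Tnfaip2 was 998 CPM in Langerhans cells (log2 5.63, edgeR adjusted p = 2.49e-10). Of 7 genes of ligand and receptor shedding 1 entered the fit, Timp3, an inhibitor of the sheddase ADAM17. It had no UMI in regulatory T cells, so only levels are given, 123 CPM in keratinocytes (93.6 without cells of shared barcodes) and 9.88 in type 2 dendritic cells.

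Depilation was compared as P50_Depil5D against P50 within types of at least 20 cells in both. With 1 library each there is no test. Values past 2-fold with 10 CPM added to both are given, with the plain ratio and its exact conditional 95% interval, which covers counting error only. Of 63 pairs of member and type with at least 10 UMIs, 3 were past 2-fold higher and 3 past 2-fold lower.

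In dendritic epidermal T cells 2 of 18 members were higher, where 0.809% of 8032 genes were (1.02% were lower). Tnfsf11 was 40.2 CPM in P50 and 95.9 in P50_Depil5D, from 29 and 79 UMIs, a ratio of 2.38 (1.54 to 3.79). Over the 4 libraries without depilation Tnfsf11 ran from 0 to 40.2 CPM, so the depilated library had the highest value. The P80 value, 35.9 CPM, came from 2 UMIs in 40 cells, with an interval of 4.34 to 129.5 CPM. That interval includes the value of the depilated library, so whether Tnfsf11 was higher there than in P80 is not known. Tnfsf9 was 6.94 and 31.6 CPM, from 5 and 26 UMIs, a ratio of 4.55 (1.72 to 15.2). For Tnfsf9 P45 and P63, at 43.7 and 64.2 CPM, were above the depilated library, and P50 was the lowest of the 5. Without low-share cells, those whose pseudogene share of ribosomal protein UMIs was under 0.5 of their library's median, the log2 value of Tnfsf9 fell from 1.30 to 0.93 and below the 2-fold limit. The T cell markers of this type summed to 16512 CPM in P50 and 15140 in P50_Depil5D.

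In keratinocytes 1 of 10 members was higher, where 0.643% of 8401 genes were (0.369% were lower). Tnfrsf1b was 12.7 CPM in P50 and 47.2 in P50_Depil5D, from 10 and 42 UMIs, a ratio of 3.71 (1.83 to 8.28). The 4 libraries without depilation lay between 4.64 and 12.7 CPM. Without cells of shared barcodes the values were 19.5 and 67.9 CPM, and the other libraries without depilation reached 49.8 CPM, in P80 from 4 UMIs. Tnfrsf1b is high in T cells, and the 8 T cell markers summed to 765 CPM in the keratinocytes of P50 and 809 in those of P50_Depil5D, with 7 of 8 found in each. The part of T cell RNA in the Tnfrsf1b values was not tested. Tnfrsf12a was 196 and 342 CPM, a ratio of 1.74 (1.43 to 2.13), inside the 2-fold limit.

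**Figure D4:**
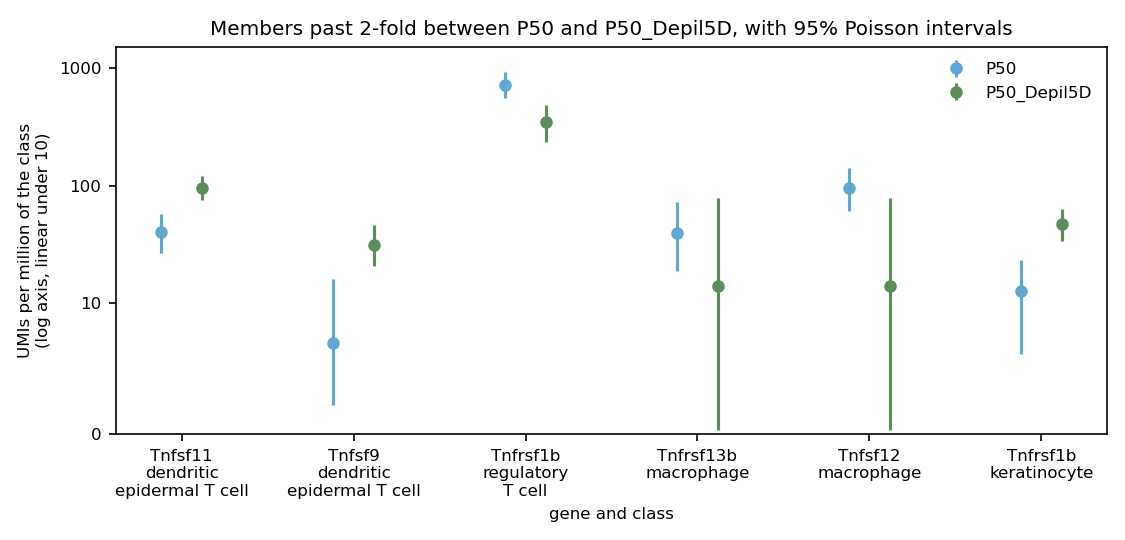
Level (CPM within the type, log axis, linear under 10) of the 6 pairs of member and type past 2-fold between P50 and P50_Depil5D, with exact 95% Poisson intervals. Tnfsf11 and Tnfsf9 in dendritic epidermal T cells and Tnfrsf1b in keratinocytes are higher in P50_Depil5D, and the intervals of both macrophage pairs reach toward 0.

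In regulatory T cells 1 of 7 members was lower, where 7.33% of 2169 genes were (5.76% were higher). Tnfrsf1b was 717 CPM in P50 and 344 in P50_Depil5D, from 64 and 32 UMIs, a ratio of 0.480 (0.304 to 0.744). P45 and P80, at 396 and 425 CPM, lay nearer to the depilated library, and P50 and P63 stood above. Without low-share cells the log2 value was -0.83 in place of -1.04, inside the limit. In macrophages 2 of 7 were lower, where 13.8% of 3230 genes were lower and 4.86% higher, so the share of members is read against a high background. They were Tnfsf12, from 24 UMIs to 1 (95.03 and 13.98 CPM, ratio 0.147, 0.00358 to 0.902), and Tnfrsf13b, from 10 UMIs to 1, whose interval spans 1 (0.353, 0.00813 to 2.48). No member was past the limit in other T cells (8 members, where 6.62% of genes were higher and 6.95% lower) or type 2 dendritic cells (13 members, 0.344% and 1.89%).

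Across the resting phase, P80 was set against P45, with P50 and P63 beside them, in 57 pairs of member and type. Of these 2 were past 2-fold higher and 5 lower, but 4 of the 5 lower pairs had 0 UMIs in the small P80 sums. In each of these 4 the level that 3 UMIs would give in P80 was above the P45 level, so a fall was not detectable at this depth. In dendritic epidermal T cells 1 of 15 members was higher and 2 lower, where 10.6% of 6318 genes were higher and 20.4% lower. Cd27 was 228, 55.5, 150 and 89.6 CPM from P45 to P80, a ratio of 0.393 (0.126 to 0.939), with no steady order over the days. Without cells of shared barcodes its log2 value, with 10 CPM added, was -0.65 in place of -1.26 and inside the limit. Tnfrsf12a was 7.81, 19.4, 7.14 and 107.6 CPM, the last from 6 UMIs (ratio 13.8, 3.503 to 57.1). Keratinocyte markers in the same cells summed to 336 CPM in P45 and 4590 in P80, and their part in the Tnfrsf12a value was not tested. Tnfrsf21 had 10 UMIs in P45 (15.6 CPM) and 0 in P80, where 3 UMIs would be 53.8 CPM.

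In macrophages 1 of 12 members was past the limit higher and 2 lower, both with 0 UMIs in P80, where 13.5% of 5580 genes were higher and 32.7% lower. Only 25 macrophages and 31853 UMIs were in the P80 sum. Tnf and Ltb had 33 and 13 UMIs in P45 and 0 in P80, where 3 UMIs would be 94.2 CPM against 54.8 and 21.6 CPM in P45, so no fold is given and neither shows a fall. Tnfrsf21 had 10 and 2 UMIs, a ratio whose interval spans 1 (3.78, 0.403 to 17.7). In type 2 dendritic cells 0 of 17 were higher and 1 lower (4.36% and 7.69% of 8440 genes): Cd40 had 25 UMIs in P45 (11.4 CPM) and 0 in P80, where 3 UMIs would be 21.9 CPM, against 34.1 CPM in P50 and 29.9 in P63. Tnfsf9 in the same cells was 143 and 146 CPM, a ratio of 1.03 (0.618 to 1.61). In keratinocytes no member of 13 was past the limit (2.03% of 10010 genes higher and 1.39% lower). Tnfrsf19 was 35.8 CPM in P45 and 68.0 in P80 (ratio 1.90, 1.28 to 2.79), but without cells of shared barcodes P80 had 1 UMI.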

How the data were processed

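The authors deposited whole-number UMI counts per gene and cell for 5 libraries of CD45+ dermal cells, which is the unit used. Per the submitters' processing notes the build was mm10 and Seurat was used, with no version or role. For the aligner, counting tool, annotation and cell calling, a name or version is not given in the sources used here. Coordinates are from GENCODE vM21, in which all 37 symbols were found, and start windows from RefSeq on GRCm38.p6, cut at exons of GENCODE vM21.

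Barcodes under 200 genes or over 10% mitochondrial UMIs, 61 in all, were removed. A cell took the type with the most distinct markers of 17 lists, given at least 2 and strictly more than any other type. T cells were then divided among 3 subsets by the same rule, and Langerhans cells also needed Cd207. Of 751 cells without a type, 386 were tied between types. No doublet caller was run, so doublets with more markers of 1 type remain in it. Sums needed 10 cells, and types in the fit 3 sums. Tests used edgeR 4.0.16 (TMM, filterByExpr, quasi-likelihood, Benjamini-Hochberg), with DESeq2 1.42.0 as an alternative, under R 4.3.3, and were tested on simulated data. Ratios used types of 20 cells, genes with 10 UMIs and 10 CPM added. Shares of cells are after thinning to 1000 UMIs. Intervals cover counting error only, and UMIs of 1 cell or library are not replicates. A limit for 0 UMIs is 3 counts. The test against summed other immune types was added after the data were examined.

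Named with values are members with at least 20 UMIs in assigned cells, by role, each with its highest type of at least 50 cells, members past 2-fold between libraries, fixed ligand and receptor pairs, and up to 4 genes of largest fold per pathway list. Members under 20 UMIs named singly were chosen after their values were seen. The members and lists were chosen with earlier results of these data known. No columns of other samples were found.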

Additional observations from a re-analysis of the deposited data

How the results depend on the processing

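Of 30 higher and 22 lower calls of member and type, DESeq2, totals in place of TMM, no library block, 3 other marker rules, no cells of shared barcodes, no low-share cells and at least 500 genes per cell each left within 1.5 times as many. With no filter on low counts there were 52 higher calls, but 24 of the 37 members then have a type at 0, where the mean of the other types has no finite log value. Against summed other immune types, an alternative added after the data were examined, there were 37 lower calls, over 18 members tested and with 15.6% of all pairs lower (13% higher). Leaving out 1 library gave 24 to 30 higher and 14 to 23 lower calls, the 14 without P45. Cd40lg in regulatory T cells (2.53 on the log2 scale, with a type at 0) turned to -0.15 with at least 3 markers and -0.038 with 2 more markers than any other type. Depilation gave 5 higher pairs and 1 lower with types by highest mean marker level, 5 and 7 with 1 CPM added, and 7 lower with 2 more markers. P80 over P45 gave 5 higher and 8 lower pairs with 3 markers, 0 higher with 2 more markers, 4 higher by mean marker level, 8 higher and 14 lower without cells of shared barcodes, 1 and 3 at 500 genes per cell, 1 and 8 with TMM, and 11 lower with 1 CPM added. Tnfrsf21 in dendritic epidermal T cells turned to 0.22 by mean marker level. The cause of these changes was not tested. No paired analysis was possible because each group has 1 library. Type 1 dendritic cells, with 133 cells, left the fit under 5 of the rules, which gives no value there.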

Other observations

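Some types were too few for the tests, and their values come from pooled libraries. Gamma-delta T17 cells, the Il17a-producing T cells of the dermis, numbered 33 and had Ltb at 1031 CPM (788 to 1324) and Tnf at 321 CPM (193 to 501). Their Tnfsf8 was 118 CPM (47.5 to 244, 7 UMIs). In the 21 natural killer cells or type 1 innate lymphoid cells Tnfsf8 was 113 CPM (36.6 to 263, 5 UMIs). Type 2 innate lymphoid cells (ILC2), 41 cells led by Il13, had Ltb at 447 CPM, Cd27 at 368 (245 to 532), Tnfrsf9 at 158 (81.6 to 276) and Tnfrsf25 at 105 (45.4 to 207). Their Tnfrsf13b was 0 in 76024 UMIs.

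The 25 mature dendritic cells, which carried Ccr7, Fscn1 and Ccl22, had Cd40 at 342 CPM (222 to 506, 25 UMIs). That interval lies above the one for macrophages, 19.9 to 42.1 CPM. Tnfsf9 in the same cells was 110 CPM (47.3 to 216) and Ltb was at 0. The 12 B cells were all in P45 and had 5 UMIs of Tnfrsf13b (172 CPM, 55.8 to 401) and 3 of Tnfrsf13c (103 CPM, 21.3 to 301). The 47 endothelial cells had Tnfsf10 at 62.0 CPM from 9 UMIs.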
